A study of Mus musculus with 6 samples.

Results

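The subunits of the proteasome and the immunoproteasome were compared between bone marrow-derived macrophages (BMDM) that lack the catalytic subunit of the phosphatase PP2A (PP2A KO) and wild-type BMDM (WT). The genes were all rows of the count table whose symbol reads Psm, a letter from a to g and a number, and 48 of the 55453 rows met this rule. They comprised 14 constitutive alpha and beta subunits of the 20S core, 3 inducible beta subunits, 2 tissue-restricted core subunits, 17 subunits of the 19S regulatory particle, the 2 PA28 subunits PA28 alpha and PA28 beta, and 10 assembly chaperones and other regulators.

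The proteasome degrades proteins that carry ubiquitin. Its 20S core is a barrel with outer rings of alpha subunits and inner rings of beta subunits, of which PSMB5, PSMB6 and PSMB7 cut peptide bonds. The 19S particle caps the barrel, binds ubiquitin, unfolds the substrate with a ring of ATPases and threads it into the core. In cells exposed to interferon, the inducible subunits PSMB8, PSMB9 and PSMB10 are built into new cores in place of PSMB5, PSMB6 and PSMB7, and PA28 opens the core without ATP. The cores that result are called immunoproteasomes, which are known in macrophages and dendritic cells for making peptides that fit MHC class I molecules.

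The PP2A KO group was 3 libraries of BMDM from mice that the study describes as LysMcre PP2Ac fl/fl, in which exon 1 of *Ppp2ca* is floxed and Cre is expressed from the myeloid *Lyz2* promoter. The WT group was 3 libraries of BMDM from WT mice, for which no Cre or floxed allele is described, so that any effect of Cre itself cannot be told apart from the loss of PP2A. Both groups are labelled as C57BL/6. The study describes its mice as of both sexes and 6 to 10 weeks old, without stating this for each library. The labels name no treatment, and both groups were taken as treated with the STING agonist cGAMP at 10 μg/mL for 4 hours, as the study describes for its RNA-Seq. Without an untreated group, what follows is a difference between genotypes and not a response to cGAMP. The labels give replicate numbers but do not say that replicates came from separate cultures or mice, so p-values measure the spread between these libraries, which may be technical.

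Libraries held between 35257156 and 47390899 counts, at which 3 counts equal 0.0604 to 0.0909 CPM (each count relative to the library total after TMM scaling). This floor covers counting error only. *Ppp2ca*, the targeted gene, had 1.11, 1.0 and 0.911 CPM in the PP2A KO libraries and 214, 205 and 197 CPM in the WT libraries, as the labels state. Of the 7 macrophage markers, *Adgre1*, *Cd68* and *Csf1r* were each over 1000 CPM in every library, *Fcgr1* had 549 to 1004 CPM, *Itgam* 109 to 142 CPM, *Mertk* 103 to 147 CPM and *Lyz2*, which shares sequence with its paralog *Lyz1*, 6.58 to 10.1 CPM. *Fcgr1* (log2 fold change 0.70, edgeR adjusted p = 0.00049) and *Mertk* (0.27, edgeR adjusted p = 0.0398) were higher in PP2A KO. The number called higher was 4 in a fit blocked by replicate number, 1 when any of the PP2A KO libraries or WT replicate 2 was left out, and 3 without WT replicate 1. Of the lists of markers of other cells, the 4 fibroblast genes summed to between 22.7 and 33.4 CPM in PP2A KO and between 74.9 and 118 CPM in WT, and all 4 were lower in PP2A KO (median log2 fold change -2.00, none at 0). The 6 proliferation genes summed to between 269 and 282 CPM in PP2A KO and between 326 and 395 CPM in WT, and 5 of the 6 were lower in PP2A KO. The part of these differences in the results on the proteasome genes was not tested. Markers of T cells, NK cells, B cells, neutrophils, dendritic cells and erythroid cells summed to no more than 1.82 CPM per list in any library, with *Cd8a* and *Ly6g* among the markers at 0 in all 6.

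Short promoter stretches are shown first, since the inducible subunits and PA28 are known targets of interferon-activated factors and the constitutive subunits of NRF1. RefSeq promoter windows on GRCm38.p6, from 250 bases before to 50 after the start, were found for 40 of the 48 genes. Each was searched on both strands for the core of the interferon-stimulated response element (GAAA, any 2 bases and GAAA again, bound by IRF factors), the core of the gamma-activated site (TTCNNNGAA) and the core of the antioxidant response element (TGACNNNGC, bound by NRF1 and NRF2). These are given 5′ to 3′ on the gene's strand with the match in capitals. A match on the other strand reads as its reverse complement.

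Matches to the interferon-stimulated core occurred in windows of 5 of the 40 genes (12.5%), against 3.44% of the 32851 windows of all genes. Here and below, the share of members counts genes with a match in any window. The share of all windows counts single windows, so these shares are not like for like. All 5 matches are shown, and *Psme1* is the member of PA28 or the inducible group among them.
Psme1, chr14:55578493-55578522, forward strand: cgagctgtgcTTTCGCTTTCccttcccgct
Psmb3, chr11:97703261-97703290, forward strand: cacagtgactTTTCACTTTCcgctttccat
Psmd4, chr3:95042675-95042704, reverse strand: ataaccaaccTTTCCATTTCtgtggcgcct
Psmd9, chr5:123228021-123228050, forward strand: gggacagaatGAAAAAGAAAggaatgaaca
Psmg4, chr13:34162969-34162998, forward strand: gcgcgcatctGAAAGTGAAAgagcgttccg

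TTCNNNGAA was found in windows of 3 of the 40 genes (7.5%, against 8.3% of all windows), namely *Psmb8*, *Psmd2* and *Psmg1*. The stretch of *Psmb8*, an inducible subunit, is shown, and it ran from 97 to 89 bases before the RefSeq start.
Psmb8, chr17:34198088-34198116, forward strand: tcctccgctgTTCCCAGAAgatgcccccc

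Windows of 6 of the 40 genes held TGACNNNGC (15%, against 12.4% of all windows). Those of *Psmb5* and *Psmb6*, the constitutive counterparts of *Psmb8* and *Psmb9*, and that of the activator *Psme4* are shown.
Psmb5, chr14:54618024-54618052, reverse strand: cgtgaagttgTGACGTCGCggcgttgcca
Psmb6, chr11:70525338-70525366, forward strand: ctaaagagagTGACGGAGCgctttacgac
Psme4, chr11:30771758-30771786, forward strand: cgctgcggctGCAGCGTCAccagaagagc

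The windows of *Psmb9*, *Psmb10* and *Psme2* held none of the 3 sets of letters. Only these exact letters within the windows were searched, so variant or more distant sites would be missed. The parts of the windows of *Psmb10* and *Psme2* that lie before the annotated gene are printed because these genes had the largest difference of the inducible subunits and of PA28.
Psmb10, chr8:105938445-105938642, reverse strand: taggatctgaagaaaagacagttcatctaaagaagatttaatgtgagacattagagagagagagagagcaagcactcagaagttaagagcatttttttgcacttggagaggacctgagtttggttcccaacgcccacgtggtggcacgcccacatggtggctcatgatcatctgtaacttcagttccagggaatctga
Psme2, chr14:55591114-55591351, reverse strand: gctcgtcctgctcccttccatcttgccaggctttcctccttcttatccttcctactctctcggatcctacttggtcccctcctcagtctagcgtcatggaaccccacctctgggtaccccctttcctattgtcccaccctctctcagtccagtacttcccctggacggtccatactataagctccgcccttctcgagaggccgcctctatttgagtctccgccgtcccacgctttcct

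The inducible subunits and PA28 were about 1.7 to 2.4 times as high in PP2A KO as in WT, 9 of the 14 alpha and beta subunits of the constitutive core rose, by less, and the summed level of the 19S particle was close to that of WT. Of the 48 genes, 47 passed the filter on low counts. At a false discovery rate (FDR) under 0.05 in edgeR's quasi-likelihood test, 18 were higher in PP2A KO, where 18.1% of the 13680 genes tested were higher, and 2 were lower, where 19% of the genes tested were lower. In 23 genes all 3 PP2A KO libraries lay above all 3 WT libraries, which held for 24% of the genes tested, and in 4 they lay below, which held for 26.8%. The median log2 fold change (PP2A KO minus WT) was 0.14 for the 47 genes and -0.02 for all genes tested. Scaling by library size alone moved the median of all genes by -0.22, and then 10 of the 47 were higher and 8 lower (55.6% of calls higher against 90% with TMM), where 11% and 44.8% of all genes were called. Relative to the median of all genes, the median of the 47 was 0.17 higher under both scalings. A scaling shifts all genes by nearly the same amount, so this agreement was fixed in advance and is no support.

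**Figure D1:**
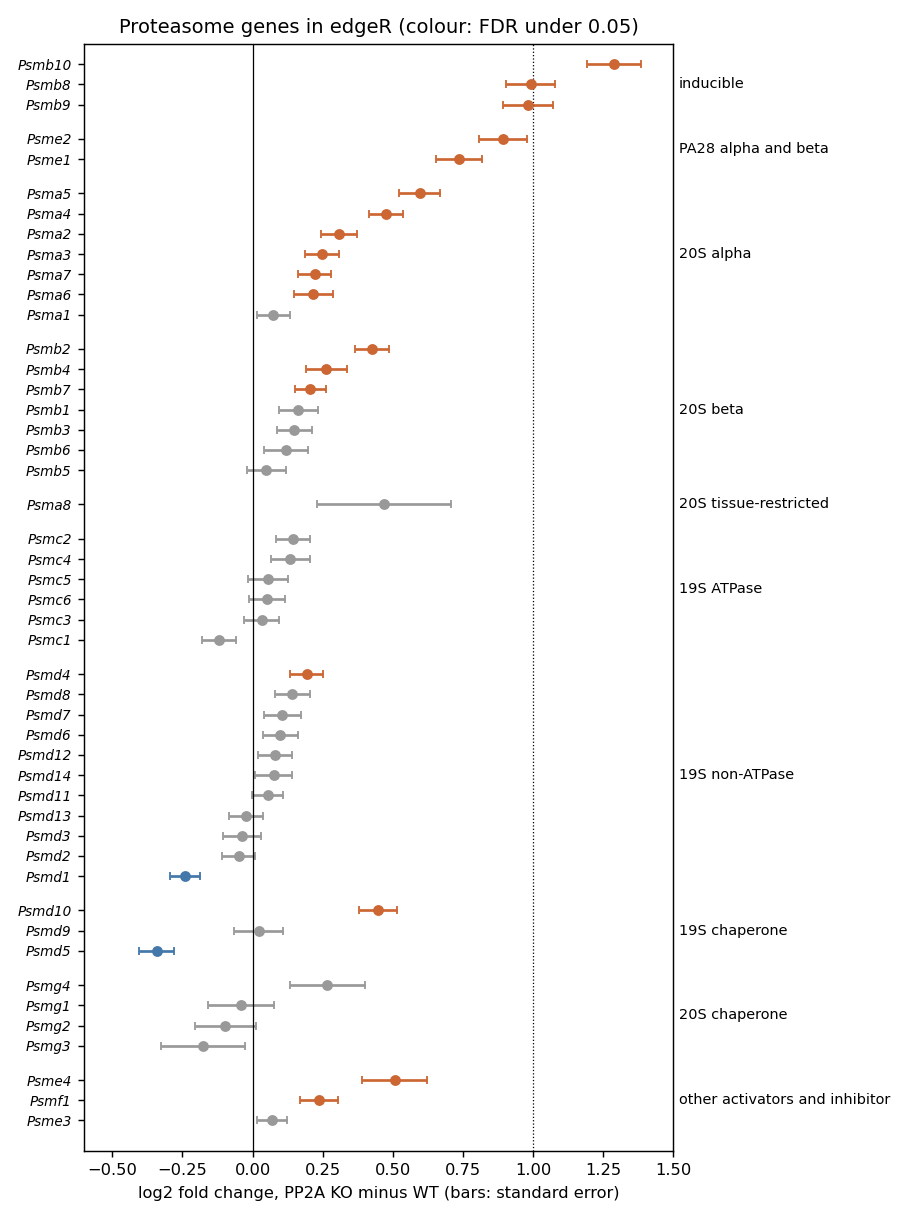
Log2 fold change (PP2A KO minus WT, horizontal axis) of the 47 genes tested, grouped by role, with bars for the standard error and colours for FDR under 0.05 (orange higher, blue lower). The 3 inducible subunits lie from 0.98 to 1.29 and PA28 at 0.74 and 0.89, while the 17 subunits of the 19S particle lie from -0.24 to 0.19. With scaling by library size alone every point lies about 0.22 further to the left, so that 20 points near 0 change sign, *Psmb7* and *Psmd4* among those in colour.

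The inducible subunits were the members with the largest differences. *Psmb8* (LMP7, chymotrypsin-like), at chr17:34197721-34201454 (GRCm38, forward strand), had 292, 305 and 284 CPM in the PP2A KO libraries and 163, 150 and 130 CPM in the WT libraries. *Psmb9* (LMP2), beside it at chr17:34181987-34187764 (reverse strand), had 177, 176 and 159 CPM in PP2A KO and 96.3, 86.5 and 76.6 CPM in WT. *Psmb10* (MECL-1, trypsin-like), at chr8:105935735-105938444 (reverse strand), had 227, 224 and 206 CPM in PP2A KO and 101, 89.1 and 78.6 CPM in WT. For each of these genes every PP2A KO library lay above every WT library, and WT replicate 1 was the highest and WT replicate 3 the lowest of the WT libraries.

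*Psmb10* rose 2.44-fold (log2 fold change 1.29, standard error 0.10, edgeR adjusted p = 5.51e-05), and was the member past the thresholds the study used (log2 fold change over 1 and FDR under 0.01, passed by 3.36% of the genes tested in this direction and 2.99% in the other, which 0 members did). *Psmb8* rose 1.99-fold (log2 fold change 0.99, standard error 0.09, edgeR adjusted p = 8.89e-05). *Psmb9* rose 1.97-fold (log2 fold change 0.98, standard error 0.09, edgeR adjusted p = 0.000103). By log2 fold change they ranked 290th, 559th and 568th from the highest of the 13680 genes. *Psmb8* and *Psmb9* lay just under a log2 fold change of 1, and both passed it in 6 of 16 alternatives, those without PP2A KO replicate 3 and without WT replicate 1 among them, and *Psmb8* also without WT replicate 2. *Psmb9* overlaps *Tap1*, which lies on the opposite strand, and the strand setting of the counting is not given in the sources used here.

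**Figure D2:**
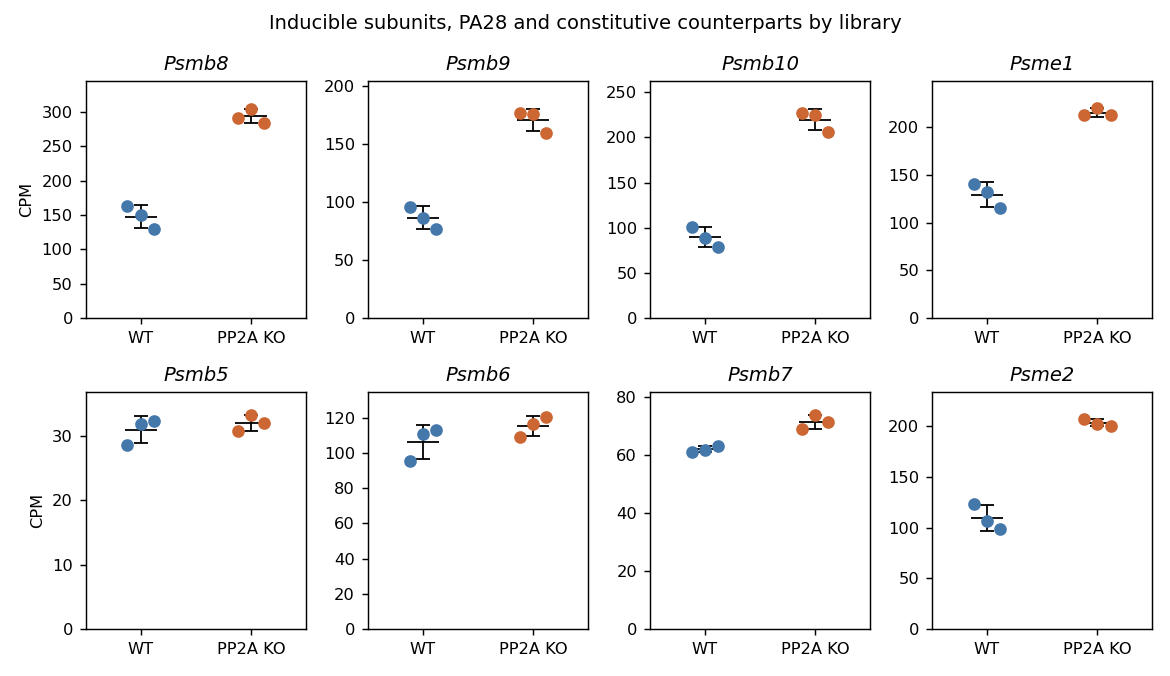
CPM (vertical axes, from 0) of the inducible subunits, PA28 and the constitutive counterparts in each library, with a point per library, a line for the mean and bars for the SD of 3 libraries. The PP2A KO points of *Psmb8*, *Psmb9*, *Psmb10*, *Psme1* and *Psme2* all lie above the WT points, those of *Psmb7* by a small margin, and those of *Psmb5* and *Psmb6* overlap with WT.

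The constitutive counterparts moved far less. *Psmb5* (the constitutive counterpart of *Psmb8*) had 30.7, 33.3 and 32.0 CPM in PP2A KO and 28.5, 31.9 and 32.4 CPM in WT. *Psmb6* (that of *Psmb9*) had 109, 117 and 121 CPM in PP2A KO and 95.2, 111 and 113 CPM in WT. The groups overlapped for both genes. For *Psmb7* (that of *Psmb10*) the values were 69.1, 73.8 and 71.6 CPM in PP2A KO and 61.2, 61.7 and 63.2 CPM in WT, without overlap.

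*Psmb7* rose 1.15-fold (log2 fold change 0.21, standard error 0.06, edgeR adjusted p = 0.0172). Its direction turned with scaling by library size alone (-0.01), and the call was lost without PP2A KO replicate 2 (log2 fold change 0.18, edgeR adjusted p = 0.0815) and without WT replicate 2 (0.20, edgeR adjusted p = 0.0634). It was lost as well with upper-quartile scaling (0.14, edgeR adjusted p = 0.0905), no filter (0.20, edgeR adjusted p = 0.0557) and the GC and length correction (0.13, edgeR adjusted p = 0.0846). *Psmb5* had a log2 fold change of 0.05 (standard error 0.07, edgeR adjusted p = 0.62) and *Psmb6* of 0.12 (standard error 0.08, edgeR adjusted p = 0.275, and 0.0346 when the replicate number was a block). Both turned negative with scaling by library size alone (-0.17 and -0.10), and *Psmb5* also with upper-quartile scaling and without WT replicate 1. Of all stretches of 50 bases that the transcripts of *Psmb5* hold, 54.07% occur also in *Gm3375*, *Mir686* or *Psmb5-ps*, so its count is uncertain.

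The balance of each pair was taken as a ratio of levels per kilobase (CPM per kb of the principal transcript), which is the same under every scaling of the libraries. *Psmb8*/*Psmb5* was 5.25, 5.06 and 4.91 in PP2A KO and 3.16, 2.60 and 2.22 in WT. *Psmb9*/*Psmb6* was 0.957, 0.891 and 0.780 in PP2A KO and 0.597, 0.462 and 0.399 in WT. *Psmb10*/*Psmb7* was 2.91, 2.69 and 2.55 in PP2A KO and 1.47, 1.28 and 1.1 in WT. All PP2A KO ratios lay above all WT ratios in each pair.

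From the mean of the log2 ratios, the balance shifted 1.93-fold for *Psmb8*/*Psmb5*, 1.82-fold for *Psmb9*/*Psmb6* and 2.13-fold for *Psmb10*/*Psmb7* in favour of the inducible gene. Of the summed level per kilobase of the 6 genes, the inducible genes held 66.2% ± 1.66 in PP2A KO and 50.2% ± 4.58 in WT (SD, n = 3). In PP2A KO the share was 67.7%, 66.4% and 64.4%, and in WT 55.0%, 49.7% and 45.8%. The share and the ratios rest in part on *Psmb5*, 54.07% of whose 50-base stretches occur also in other genes. They rest also on *Psmb9*, which overlaps *Tap1*. How far this altered them was not tested. Levels between genes depend on the length used as well. Over the union of exons the share was 68.9% against 52.2%, and the WT mean of *Psmb8*/*Psmb5* was 1.28 in place of 2.66. The fold shift of each ratio between genotypes cannot change with the length used, which cancels from it.

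**Figure D3:**
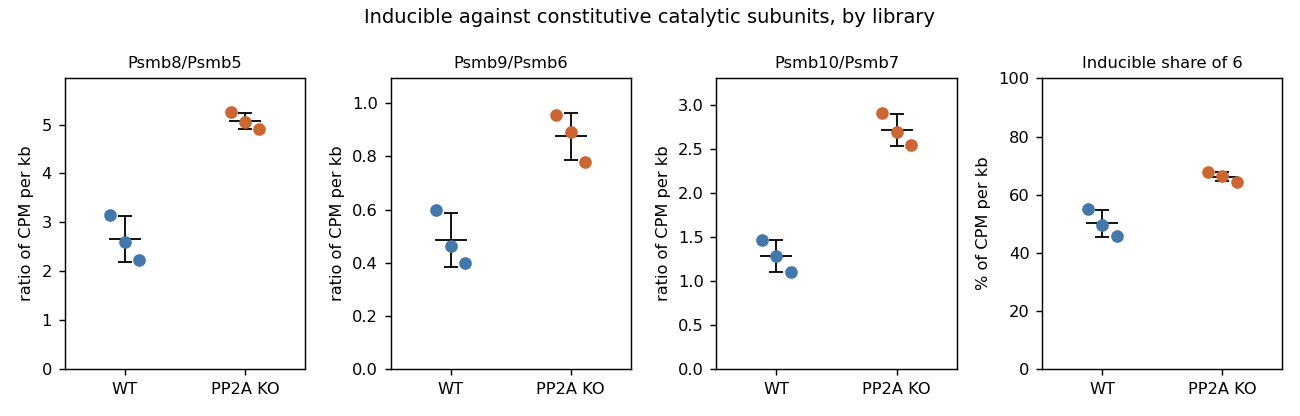
Ratio of each inducible to its constitutive gene (CPM per kb of the principal transcript, vertical axes from 0) and the inducible share of all 6 catalytic genes (%), with a point per library, a line for the mean and bars for the SD of 3 libraries. In each panel the 3 PP2A KO libraries lie above the 3 WT libraries, and the share was 64.4% to 67.7% against 45.8% to 55.0%.

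PA28, the interferon-inducible activator that docks on the core in place of the 19S particle, followed the inducible subunits. *Psme1* (PA28 alpha), at chr14:55578123-55581529 (forward strand), had 213, 220 and 212 CPM in PP2A KO and 141, 132 and 115 CPM in WT. *Psme2* (PA28 beta), at chr14:55587441-55591113 (reverse strand), had 207, 202 and 200.4 CPM in PP2A KO and 123, 107 and 98.6 CPM in WT. The groups did not overlap for either gene, and again WT replicate 1 was the highest and WT replicate 3 the lowest of the WT libraries.

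*Psme1* rose 1.66-fold (log2 fold change 0.74, standard error 0.08, edgeR adjusted p = 0.000209) and *Psme2* 1.86-fold (log2 fold change 0.89, standard error 0.08, edgeR adjusted p = 0.000123). The ratio of *Psme2* to *Psme1* per kilobase was 1.09 ± 0.03 in PP2A KO and 0.979 ± 0.04 in WT (SD, n = 3), without overlap. Of such stretches of *Psme2*, 28.27% occur also in its near-copy *Psme2b* or in *Gm7928*. *Psme2b* itself had 59.6, 50.6 and 53.9 CPM in PP2A KO and 42.2, 27.9 and 28.9 CPM in WT (log2 fold change 0.73, standard error 0.15, edgeR adjusted p = 0.00402). When the counts of *Psme2* and *Psme2b* were summed, the log2 fold change was 0.86 (edgeR adjusted p = 0.000249).

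The remaining activators and the inhibitor differed among themselves. *Psme4* (PA200, an activator known for the degradation of acetylated histones) had 168, 151 and 155 CPM in PP2A KO and 134, 97.7 and 102 CPM in WT, without overlap, and rose 1.42-fold (log2 fold change 0.51, standard error 0.12, edgeR adjusted p = 0.00767). *Psme3* (PA28 gamma, the nuclear relative of PA28) had 70.9, 70.8 and 72.5 CPM in PP2A KO and 66.4, 69.5 and 68.2 CPM in WT. Its groups did not overlap, but the difference was small and did not pass the test (log2 fold change 0.07, standard error 0.05, edgeR adjusted p = 0.34), and it turned negative with scaling by library size alone (-0.15).

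*Psmf1* (PI31, named for its inhibition of the core) had 37.0, 38.7 and 36.3 CPM in PP2A KO and 30.6, 34.1 and 30.4 CPM in WT, without overlap. It rose 1.18-fold (log2 fold change 0.24, standard error 0.07, edgeR adjusted p = 0.0209). The call was lost without PP2A KO replicate 1 (edgeR adjusted p = 0.0547), without PP2A KO replicate 2 (0.0859) and without WT replicate 3 (0.0683), and with upper-quartile scaling (0.0871) or library size alone (0.824).

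In the constitutive core, 9 of the 14 genes rose and 0 fell, where 18.1% and 19% of all genes did. The median log2 fold change was 0.22 (6 of 7 alpha subunits rose, median 0.25, and 3 of 7 beta subunits, median 0.16). At an unadjusted edgeR p under 0.05, 11 were higher and 0 lower, and DESeq2 and limma-voom gave 9 and 0 at FDR under 0.05. The 5 that did not pass were *Psma1*, *Psmb1*, *Psmb3*, *Psmb5* and *Psmb6*. In a fit blocked by replicate number 12 of the 14 rose, where 24.4% of all genes did. With scaling by library size alone 3 rose, where 11% of all genes did, the median of the core then being 0.00. In both scalings the median lay 0.24 above that of all genes, a distance that a change of scaling leaves nearly unchanged by construction. Without PP2A KO replicate 2 the count of core genes that rose fell to 5, where 14.2% of all genes rose.

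*Psma5* (an alpha-ring subunit) had 91.6, 91.2 and 88.5 CPM in PP2A KO and 66.3, 56.1 and 57.1 CPM in WT. *Psma4*, another subunit of that ring, had 87.4, 88.7 and 90.2 CPM in PP2A KO and 67.5, 62.6 and 61.4 CPM in WT. The groups lay apart for both. *Psma5* rose 1.51-fold (log2 fold change 0.60, standard error 0.07, edgeR adjusted p = 0.000368) and *Psma4* 1.39-fold (log2 fold change 0.47, standard error 0.06, edgeR adjusted p = 0.000402). Of the 50-base stretches of *Psma5*, 49.13% occur also in *Gm8394* or *Gm12989*, and of those of *Psma4* 11.63% in *Gm6542*, so reads could have been divided between them.

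*Psmb2*, a structural beta subunit, had 44.6, 48.0 and 47.0 CPM in PP2A KO and 33.7, 36.2 and 34.2 CPM in WT, without overlap (log2 fold change 0.43, standard error 0.06, edgeR adjusted p = 0.000699). With *Psma4* and *Psma5* it formed the core genes called higher in all 16 alternatives. *Psma2* (log2 fold change 0.31, edgeR adjusted p = 0.0049) lost its call with scaling by library size alone (edgeR adjusted p = 0.228) and kept it without any 1 library.

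The other called core genes had smaller differences. These were *Psmb4* (log2 fold change 0.26, edgeR adjusted p = 0.0202), *Psma3* (0.25, edgeR adjusted p = 0.0117), *Psma7* (0.22, edgeR adjusted p = 0.0153) and *Psma6* (0.22, edgeR adjusted p = 0.0343). Leaving out 1 library ended the call of *Psma3* without WT replicate 2 (edgeR adjusted p = 0.0506), of *Psma7* without PP2A KO replicate 2 (0.0736) or WT replicate 3 (0.0524), and of *Psmb4* without PP2A KO replicate 2 (0.0952) or 3 (0.0529). That of *Psma6* ended without PP2A KO replicate 2 (edgeR adjusted p = 0.12) or 3 (0.0821), and without WT replicate 2 (0.0927) or 3 (0.107).

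The scaling also bore on these calls. With upper-quartile scaling *Psmb4* (edgeR adjusted p = 0.0789), *Psma7* (0.072) and *Psma6* (0.108) did not pass, and with library size alone neither these nor *Psma3* did, with log2 fold changes of 0.05, 0.01, 0.00 and 0.03. The GC and length correction took *Psma6* to 0.09 (edgeR adjusted p = 0.277, and 0.156 with the block).

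*Psma1*, the alpha subunit that did not pass, had 90.0, 96.5 and 96.4 CPM in PP2A KO and 89.7, 91.7 and 87.5 CPM in WT, which overlapped (log2 fold change 0.07, standard error 0.06, edgeR adjusted p = 0.364, and -0.14 with scaling by library size alone). For *Psmb1* (log2 fold change 0.16) and *Psmb3* (0.15) the libraries did not overlap, and edgeR adjusted p was 0.0922 and 0.092 unpaired and 0.0051 and 0.0169 in the blocked fit. Unpaired, *Psmb1* passed with the GC and length correction (edgeR adjusted p = 0.0385) and *Psmb3* with RLE scaling (0.0481). Both turned negative with scaling by library size alone (-0.05 and -0.07).

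The 19S particle showed little difference. Of its 17 genes 1 rose and 1 fell (median log2 fold change 0.05), where 18.1% and 19% of all genes did. The summed level was 1379 ± 44.7 CPM in PP2A KO and 1356 ± 9.60 CPM in WT (SD, n = 3). Of the 6 ATPases (*Psmc1* to *Psmc6*) 0 passed the edgeR test, with log2 fold changes from -0.12 to 0.14, and 1 had an unadjusted edgeR p under 0.05. DESeq2 and limma-voom also called 0 of the 6. In the blocked fit 5 of the 17 rose and 2 fell, where 24.4% and 26.4% of all genes did. *Psmc2* (log2 fold change 0.14, blocked edgeR adjusted p = 0.0252), *Psmc4* (0.14, 0.0158), *Psmd7* (0.11, 0.0461) and *Psmd8* (0.14, 0.0135) were then higher and *Psmc1* lower (-0.12, 0.036). With scaling by library size alone 0 rose and 6 fell, where 11% and 44.8% of all genes did. The median was then -0.16 and again lay 0.08 above that of all genes, a distance that scaling leaves nearly unchanged by construction.

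*Psmd1*, the large scaffold subunit at the base of the 19S particle, had 79.2, 78.0 and 80.7 CPM in PP2A KO and 93.7, 92.1 and 95.4 CPM in WT. All its PP2A KO libraries lay below all WT libraries. It fell to 0.846 of its WT level (log2 fold change -0.24, standard error 0.05, edgeR adjusted p = 0.0075), in the same direction and past the threshold in all 16 alternatives. *Psmc1* (an ATPase) had the next lowest log2 fold change, with 88.8, 94.1 and 91.0 CPM in PP2A KO and 99.6, 103 and 94.4 CPM in WT.

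*Psmd4* (RPN10, a ubiquitin receptor) had 71.0, 77.8 and 75.6 CPM in PP2A KO and 64.5, 66.7 and 65.0 CPM in WT, without overlap. It rose 1.14-fold (log2 fold change 0.19, standard error 0.06, edgeR adjusted p = 0.0289). Its direction turned with scaling by library size alone (-0.02), and the call was lost without PP2A KO replicate 2 (edgeR adjusted p = 0.118) or 3 (0.0772), and without WT replicate 2 (0.0663) or 3 (0.0756), and with upper-quartile scaling (0.138) or no filter (0.0806). *Psmc2*, the ATPase next to it in size of difference, had 63.8, 70.1 and 67.5 CPM in PP2A KO and 62.7, 60.9 and 58.7 CPM in WT.

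**Figure D4:**
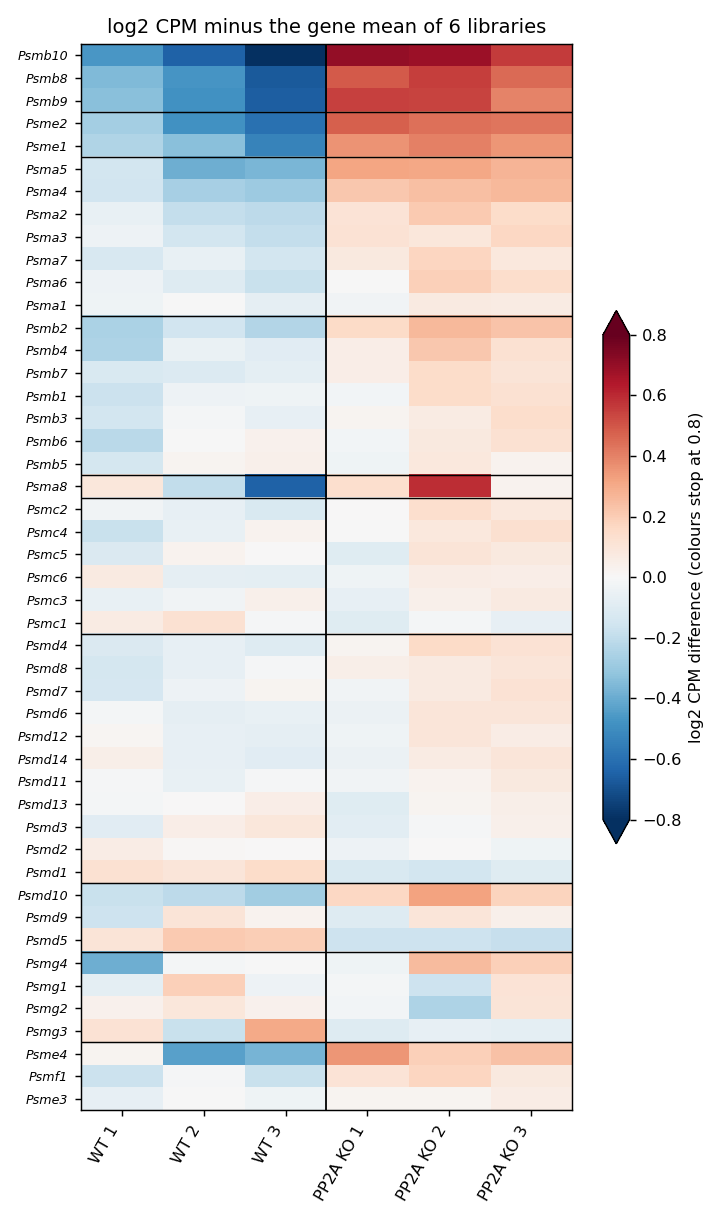
Log2 CPM of the 47 genes tested (rows, in groups by role) in each library (columns) minus the gene's mean over the 6 libraries, with red above and blue below that mean. The inducible subunits and PA28 are blue in WT and red in PP2A KO, with WT replicate 3 the lowest. At lower contrast, 6 of the 7 20S alpha genes lie higher in every PP2A KO library than in every WT library, and *Psma1* overlaps. The rows of the 19S particle are pale.

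Among the chaperones that assemble the 19S base, 2 moved in opposite directions. *Psmd10* (gankyrin) had 31.5, 35.1 and 31.8 CPM in PP2A KO and 24.8, 24.3 and 23.1 CPM in WT, and *Psmd5* (S5b) had 19.1, 19.1 and 18.8 CPM in PP2A KO and 23.0, 24.8 and 24.6 CPM in WT. Neither overlapped between the genotypes. *Psmd10* rose 1.36-fold (log2 fold change 0.45, standard error 0.07, edgeR adjusted p = 0.000949), and *Psmd5* fell to 0.789 of its WT level (log2 fold change -0.34, standard error 0.06, edgeR adjusted p = 0.00249). Both passed the threshold in the same direction in all 16 alternatives. The third, *Psmd9*, had 20.9, 24.0 and 23.1 CPM in PP2A KO and 20, 24.1 and 22.8 CPM in WT (log2 fold change 0.02, edgeR adjusted p = 0.869), and changed sign with upper-quartile scaling, with scaling by library size alone, and without PP2A KO replicate 2 or WT replicate 1.

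The 4 chaperones that assemble the 20S core (*Psmg1* to *Psmg4*) were expressed at 2.53 to 7.09 CPM, and 0 of them passed the edgeR test, DESeq2 or limma-voom, or had an unadjusted edgeR p under 0.05. *Psmg4* had 5.80, 7.09 and 6.78 CPM in PP2A KO and 4.53, 5.89 and 5.94 CPM in WT (log2 fold change 0.27, edgeR adjusted p = 0.151, and 0.0237 in the blocked fit). *Psmg3* had 2.66, 2.73 and 2.71 CPM in PP2A KO and 3.10, 2.53 and 3.53 CPM in WT (log2 fold change -0.18, edgeR adjusted p = 0.384). The groups overlapped for both.

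Of the tissue-restricted core subunits, 1 was at the floor and 1 was low. *Psmb11*, the subunit of the thymoproteasome of thymic epithelium, had 1 count in PP2A KO replicate 3 and 0 in the other libraries, and was not tested. *Psma8*, the alpha subunit of the testis, had 1.39, 1.91 and 1.29 CPM in PP2A KO and 1.35, 1.1 and 0.811 CPM in WT, which overlapped (log2 fold change 0.47, standard error 0.24, edgeR adjusted p = 0.155).

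Summed over all 48 genes, the level was 3926 ± 73.3 CPM in PP2A KO and 3131 ± 63.9 CPM in WT (SD, n = 3), a ratio of 1.25. The inducible subunits summed to 684 ± 29.6 CPM against 324 ± 37.5 CPM (ratio 2.11), PA28 to 419 ± 5.33 CPM against 239 ± 25.2 CPM (1.75), and the constitutive core to 1081 ± 35.1 CPM against 909 ± 10.4 CPM (1.19). These sums and ratios depend on the TMM scaling. With scaling by library size alone the median log2 fold change was -0.07 for the members tested and 0.00 for the core, against 0.14 and 0.22 with TMM. For the inducible subunits it was 0.78 and for PA28 0.60, against 0.99 and 0.81 with TMM. In bulk RNA a lower share of cells that express a gene and less RNA per cell cannot be told apart.

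Per kilobase of the principal transcript, *Psmb6* had the highest level in WT (133 ± 12.2 CPM per kb), followed by *Psme1* (116 ± 11.7) and *Psme2* (114 ± 13.1), neighbours within an SD of each other, and then *Psmd8* (91.4 ± 4.06) and *Psmb8* (90.7 ± 10.1), again within an SD. In PP2A KO the order was *Psme2* (211 ± 3.70 CPM per kb), *Psme1* (194 ± 4.02), *Psmb8* (180 ± 6.33), *Psmb10* (167 ± 8.79) and *Psmb6* (145 ± 7.29). *Psmb10* was 10th and *Psmb9* 11th in WT, and they were 4th and 6th in PP2A KO. These orders hold for the principal transcript only and depend on the length used. The union of exons was 3660 bases for *Psmb9* (principal transcript 1352) but 4038 for *Psmd2* (principal transcript 2961). The SD covers the spread between libraries and not the choice of length.

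The genes varied little within a genotype. The SD of log2 CPM among replicates had a median of 0.07 over the 47 genes and 0.13 over all genes tested. The sets were not matched by expression level, on which this SD depends. Whether level accounts for the difference was not tested.

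Genes around the proteasome were described from fixed lists. Of 26 partners outside the symbol rule, 5 rose and 4 fell (median log2 fold change 0.02), where 18.1% and 19% of all genes did. Without PP2A KO replicate 2, 3 rose and 1 fell, and without WT replicate 2 or 3, 4 rose and 2 fell. In these fits 14% to 15.2% of all genes rose and 13.3% to 15.7% fell. Those that rose were *Psme2b*, *Nfe2l2* (NRF2, the factor of the antioxidant response, log2 fold change 0.69, edgeR adjusted p = 9.29e-05), *Ublcp1* (a phosphatase of the proteasome, 0.33, edgeR adjusted p = 0.0202), *Pomp* (the chaperone that matures new cores, 0.30, edgeR adjusted p = 0.00392) and *Sem1* (a small 19S subunit, 0.25, edgeR adjusted p = 0.0126). Those that fell were *Ddi2* (the protease that activates NRF1, -0.33, edgeR adjusted p = 0.00878), the ubiquitin ligase *Ube3c* (-0.23, edgeR adjusted p = 0.0114), the shuttle factor *Ubqln2* (-0.22, edgeR adjusted p = 0.0186) and *Zfand2a* (-0.19, edgeR adjusted p = 0.0472).

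*Nfe2l1*, which encodes NRF1, the factor that induces proteasome genes when the proteasome is inhibited, had 189, 187 and 191 CPM in PP2A KO and 208, 206 and 213 CPM in WT (log2 fold change -0.14, edgeR adjusted p = 0.0796, and 0.0114 in the blocked fit). With scaling by library size alone 2 of the 26 partners rose and 16 fell, where 11% and 44.8% of all genes did.

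Of the 6 genes for ubiquitin and its activating enzymes, 4 rose, where 18.1% of all genes did. Among them were *Ubb* (log2 fold change 0.29, edgeR adjusted p = 0.0254), *Rps27a* (0.26, edgeR adjusted p = 0.0233) and *Uba1* (0.25, edgeR adjusted p = 0.022). With scaling by library size alone 0 of the 6 were called higher (1 at an unadjusted edgeR p under 0.05) and 1 lower. Of all genes 11% were then higher and 44.8% lower. Without 1 library the count of those that rose ran from 1 (without PP2A KO replicate 2 or WT replicate 2) to 4. It was 2 without PP2A KO replicate 1 or WT replicate 3. Of all genes 14% to 19.6% rose in these fits.

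Class I antigen processing, which takes up the peptides that the proteasome makes, had 9 of 12 genes higher and 0 lower, the median log2 fold change being 0.74, where 18.1% and 19% of all genes were called. DESeq2 and limma-voom gave the same counts, and with scaling by library size alone 8 were higher and 1 lower, where 11% and 44.8% of all genes were. *Tap1*, a subunit of the transporter that carries peptides into the endoplasmic reticulum, had 794, 740 and 683 CPM in PP2A KO and 405, 338 and 299 CPM in WT, without overlap (log2 fold change 1.09, standard error 0.11, edgeR adjusted p = 0.000165). Its partner *Tap2* (log2 fold change 0.99, edgeR adjusted p = 9.99e-05), the peptide editor *Tapbpl* (1.13, edgeR adjusted p = 6.41e-05) and the class I transactivator *Nlrc5* (1.37, edgeR adjusted p = 0.00033) also rose. The general chaperones *Calr* (0.00), *Canx* (0.05) and *Pdia3* (0.12) did not pass the test, and with scaling by library size alone all were negative (-0.21, -0.17 and -0.09), *Calr* being called lower (edgeR adjusted p = 0.0253).

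All 7 transcription factors listed as regulators of the inducible subunits rose (median log2 fold change 0.65), where 18.1% of all genes did. *Irf1*, which binds interferon-stimulated elements, had 591, 549 and 572 CPM in PP2A KO and 397, 354 and 347 CPM in WT, without overlap (log2 fold change 0.64, edgeR adjusted p = 0.00028). Others were *Nfkb1* (0.75, edgeR adjusted p = 0.000465), *Irf2* (0.67, edgeR adjusted p = 0.00029), *Stat2* (0.65, edgeR adjusted p = 0.000762), *Rela* (0.48, edgeR adjusted p = 0.000516) and *Irf9* (0.28, edgeR adjusted p = 0.00697). With scaling by library size alone 6 of the 7 were called higher, where 11% of all genes were, and *Irf9* was not (0.06, edgeR adjusted p = 0.387).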

How the data were processed

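RNA-Seq of 3 PP2A KO and 3 WT BMDM libraries was analysed (poly(A) RNA, directional kit, paired reads of 150 bases). The authors deposited 1 table of raw read counts per gene symbol on mm10, without normalization. Per the labels, the submitters' processing notes list fastp 0.20.0, kallisto 0.46.1, STAR 2.7.1a, HTSeq 0.11.2, edgeR 3.34.0 and limma 3.48.3 with no roles. Annotation, strand setting and the treatment of reads with several matches are not given in the sources used here, so that counts could be split between near-copies or overlapping genes. Of the symbols, 98.4% occur in GENCODE M21, which gave coordinates, lengths and shared windows of 50 bases.

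Counts were tested in R 4.3.3 with edgeR 4.0.16 (filterByExpr at its defaults of 10 counts and a total of 15, TMM, glmQLFit and glmQLFTest on genotype). Adjusted p-values are Benjamini-Hochberg values over the 13680 genes kept. CPM use the TMM factors (0.910 to 0.938 in PP2A KO, 1.05 to 1.10 in WT). The test was run on simulated data first. An exact permutation test of 3 against 3 libraries cannot go below p = 0.1, so none was used. In a blocked fit, replicate number was added as a term. The numbers come from the labels, and libraries with the same number deviated together (correlation across genes 0.289, 0.148 and 0.337).

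Members and lists were chosen with earlier results of these data known. The rule for named genes gives values in every library for the inducible subunits, their counterparts, PA28, the other activators and inhibitor, the 2 highest and 2 lowest members of the core, the 19S particle and the chaperones, and members near 0, and from each other list up to 4 called genes in each direction. *Nfe2l1*, *Calr*, *Canx* and *Pdia3*, and the library values of *Psmb2*, *Psmd9*, *Tap1* and *Irf1*, were added after their values were seen. *Paaf1* was not analysed here. Some listed genes are not reported here. Promoter sequences are from RefSeq (GRCm38.p6).

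Alternatives were RLE, upper-quartile and library-size scaling, no filter, a filter of 10 counts in each library, the blocked fit, leaving out each library, DESeq2 1.42.0, limma-voom (3.58.1), and a loess correction (span 0.3) for GC content and length with and without the block. Chosen after seeing the data were the sum of *Psme2* and *Psme2b* and the exon-union length.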

Additional observations from a re-analysis of the deposited data

How the results depend on the processing

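Of the 20 calls among the proteasome genes, 12 kept their direction and stayed past the threshold in all 16 alternatives, those of the inducible subunits and PA28 among them. The share of all called genes that did so was not computed, so this count has no background to be read against. The count of genes that were higher was 12 to 18 without 1 library, where 14% to 19.6% of all genes were. With library size only 10 were higher and 8 lower, where 11% and 44.8% of all genes were. That scaling also gave 3 higher in the core, 0 higher and 6 lower in the 19S particle, and 2 lower among chaperones and other regulators. Upper-quartile scaling gave 5 higher in the core, and 0 higher and 2 lower in the 19S particle, where 15.3% and 24.5% of all genes were called. The core count was 5 to 9 and the 19S count 0 to 1 without 1 library. The 19S particle had 2 higher with RLE (19.4% of all genes), 0 with no filter (10.4%), 2 higher and 2 lower with the GC and length correction (20.8% and 19.8%), and 4 higher and 2 lower with the correction and the block (26.8% and 27.4%). The replicate block gave 5 higher and 2 lower there and 26 and 3 of all 47, where 24.4% and 26.4% of all genes were called. It added 9 calls, none of which had passed before, and changed no other call. Past the study's thresholds were 1 to 3 genes without 1 library, and 3 with RLE, DESeq2, the GC and length correction and the correction with the block. The ratios of inducible to constitutive genes shifted by 0.82 to 1.08 (*Psmb8*/*Psmb5*), 0.73 to 1.02 (*Psmb9*/*Psmb6*) and 0.99 to 1.19 (*Psmb10*/*Psmb7*) on the log2 scale without 1 library. The cause of these changes was not tested.

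Small log2 fold changes turned sign. With library size only they were *Psma1* -0.14, *Psmb1* -0.05, *Psmb3* -0.07, *Psmb5* -0.17, *Psmb6* -0.10, *Psmb7* -0.01, *Psmc2* -0.07, *Psmc3* -0.18, *Psmc4* -0.08, *Psmc5* -0.16, *Psmc6* -0.16, *Psmd4* -0.02, *Psmd6* -0.12, *Psmd7* -0.11, *Psmd8* -0.07, *Psmd9* -0.20, *Psmd11* -0.16, *Psmd12* -0.13, *Psmd14* -0.14 and *Psme3* -0.15. With upper-quartile scaling they were *Psmb5* -0.02, *Psmc3* -0.03, *Psmc5* -0.01, *Psmc6* -0.01, *Psmd11* -0.01 and *Psmd9* -0.04. With the GC and length correction, with and without the block, they were *Psmb5* -0.04, *Psmc5* -0.04, *Psmd3* 0.02 and *Psmd13* 0.00. Without 1 library, *Psmb5* ran from -0.01 (WT replicate 1) to 0.08, *Psmd9* from -0.05 (WT replicate 1, and -0.02 without PP2A KO replicate 2) to 0.08, *Psmd13* reached 0.01 (PP2A KO replicate 1), and *Psmg1* 0.02 (PP2A KO replicate 2) and 0.05 (WT replicate 2). *Psmg1* to *Psmg4* had 2.53 to 7.09 CPM and standard errors of the log2 fold change up to 0.15.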
